A study of Rattus norvegicus with 12 samples.

Results

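Homeobox genes encode transcription factors that bind DNA through a homeodomain, and 8 of them that are known from forebrain development are described here: Dlx1, Dlx2, Dlx5, Lhx6, Lhx1, Otx2, Six3 and Six6. They were taken by name, with every probe of the array whose gene symbol in the platform annotation, or whose current symbol by gene ID, was one of the 8. This gave 7 probes of the 22523 on the array, 1 probe for each of 7 genes, of 13337 genes named there. Dlx2 had no probe paired with it and is not analysed here. The 8 genes were chosen by measured values of the same arrays, namely their levels in the tissues and their TCDD differences in the hypothalamus, so those values are given as descriptions without a test.

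Illumina RatRef-12 BeadChip arrays, which carry gene-specific probes on beads, were hybridised with labelled cRNA from 250 ng of total RNA of Wistar rats. The rats were male offspring on postnatal day 70 whose mothers had been dosed orally on gestation day 15, with TCDD, a dioxin that binds the aryl hydrocarbon receptor, or with vehicle. The 4 groups were hypothalamus of TCDD offspring, hypothalamus of vehicle offspring, pituitary of TCDD offspring and pituitary of vehicle offspring, with 3 arrays each. No group carried an engineered allele. The labels state the maternal dose as 1 µg per kg in the series text and as 1 mg per kg in corn oil in the sample protocols, so no value is tied to a dose. They do not say which arrays share a dam, a litter or an animal, so every SD and p-value measures the spread between arrays, which may be technical. The series title places the question in gene expression of the adult male offspring after maternal exposure.

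Dlx genes act in the embryonic ganglionic eminences and the hypothalamus, where they drive the differentiation of neurons that use the transmitter GABA, and Lhx6 is a LIM homeodomain factor of the interneurons that arise there. In the mouse, Lhx1 is needed for the late differentiation of the suprachiasmatic nucleus, the circadian clock of the hypothalamus, and Six3 and Six6 act in the eye field, the hypothalamus and the pituitary. Otx2 patterns the early forebrain, persists in the choroid plexus of the adult, and in the mouse is required in the neurons that make gonadotropin-releasing hormone.

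Promoter sequences were available for 5 of the 8 genes, namely Dlx1, Lhx6, Lhx1, Six3 and Six6, as the 250 bases before the annotated start in RefSeq on the rat build GRCr8. They were searched on both strands for GCGTG, the core of the element that the dioxin-bound receptor recognises, for TAATTA, a core bound by many homeodomains, for the E-box CACGTG and for the CCAAT box CCAAT. The pair Six3 and Six6 is shown because both genes were detected on every array and because their windows share the longest stretch of any pair. The pair Dlx1 and Lhx6 is shown because both lay lower on the TCDD arrays of the hypothalamus. Sequences run 5′ to 3′ on the gene's own strand. Capitals mark the GCGTG core, which reads CACGC on the strand shown, and the stretch common to Six3 and Six6. The Six3 window is chr6:14796257-14796506 on the minus strand and the Six6 window chr6:97370185-97370434 on the plus strand. The Dlx1 window is chr3:76763614-76763863 on the plus strand and the Lhx6 window chr3:39853424-39853673 on the minus strand.
Six3: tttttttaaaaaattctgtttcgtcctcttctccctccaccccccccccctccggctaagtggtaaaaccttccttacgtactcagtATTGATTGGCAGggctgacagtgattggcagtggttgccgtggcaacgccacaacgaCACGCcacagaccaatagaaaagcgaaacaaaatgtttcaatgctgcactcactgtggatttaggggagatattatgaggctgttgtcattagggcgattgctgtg
Six6: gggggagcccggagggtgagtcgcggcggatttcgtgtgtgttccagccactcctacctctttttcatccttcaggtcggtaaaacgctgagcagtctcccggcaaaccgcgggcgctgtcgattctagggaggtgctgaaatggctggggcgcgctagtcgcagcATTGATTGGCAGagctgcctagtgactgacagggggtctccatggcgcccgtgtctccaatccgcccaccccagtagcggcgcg
Dlx1: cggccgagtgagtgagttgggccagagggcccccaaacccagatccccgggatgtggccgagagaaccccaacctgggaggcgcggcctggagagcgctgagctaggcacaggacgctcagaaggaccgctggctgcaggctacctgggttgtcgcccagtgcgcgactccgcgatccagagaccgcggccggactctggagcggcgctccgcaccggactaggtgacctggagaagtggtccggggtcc
Lhx6: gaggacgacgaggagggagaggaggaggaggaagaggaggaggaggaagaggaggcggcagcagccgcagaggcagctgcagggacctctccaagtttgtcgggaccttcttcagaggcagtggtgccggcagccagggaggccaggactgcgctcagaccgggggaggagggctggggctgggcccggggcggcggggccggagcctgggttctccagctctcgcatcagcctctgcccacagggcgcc
GCGTG was found in 1 of the 5 windows, that of Six3, and in 25.9% of all 33469 promoters of the same table. CCAAT was found in 2 of the 5, with 3 matches in Six3 and 2 in Six6, and in 34.0% of all promoters. One match of each gene, read as ATTGG, lies inside the common stretch. TAATTA was in 0 of the 5 windows and in 4.86% of all promoters, and CACGTG in 0 of the 5 and in 5.59%. The 12 bases ATTGATTGGCAG start at position -163 in Six3 and -84 in Six6, counted back from the start, on the same strand, and occur in 5 of the 33469 promoters (0.0149%). The longest stretch common to any other pair of the 5 windows was 8 to 11 bases. The windows held 69.2% G and C in Dlx1, 70.4% in Lhx6, 63.2% in Lhx1, 48.0% in Six3 and 62.8% in Six6, against a median of 51.2% over all promoters. A match of letters is not a measured binding site.

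The hypothalamus arrays detected 10852 to 11438 probes (48.2% to 50.8%) and the pituitary arrays 9934 to 10371 (44.1% to 46.0%), a probe being detected where the authors' detection p was under 0.05. The lowest signal called detected was 108.5 to 131.9 per array, in the linear intensity units of the deposited table. Of 25 preoptic and hypothalamic neuron genes, 20 were detected on all 3 vehicle hypothalamus arrays and 9 on all 3 vehicle pituitary arrays. Of 11 pituitary hormone cell genes, 3 and 10 were so detected. Among 22 tested genes of the first list, 18 were higher and 1 lower in the hypothalamus of vehicle offspring at a limma adjusted p under 0.05. Of the second list, 11 of 11 were lower there. Of all probes, 28.6% were higher and 35.7% lower. Within the other tissue alone, only 9 genes of the first list and 5 of the second passed the filter. The rest entered through the tissue they are listed for, which largely fixed their direction, so these counts are descriptions. Of the pituitary list, Cga, Fshb, Gnrhr, Pou1f1 and Tbx19 were detected on none of the 6 hypothalamus arrays. Tshb, the thyrotropin subunit gene, nevertheless gave signals of 2052.5, 388.5 and 7642.7 on the TCDD hypothalamus arrays and 602.2, 3120.6 and 2664.7 on the vehicle hypothalamus arrays, so the level of this transcript was unequal over the hypothalamus arrays.

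**Figure D1:**
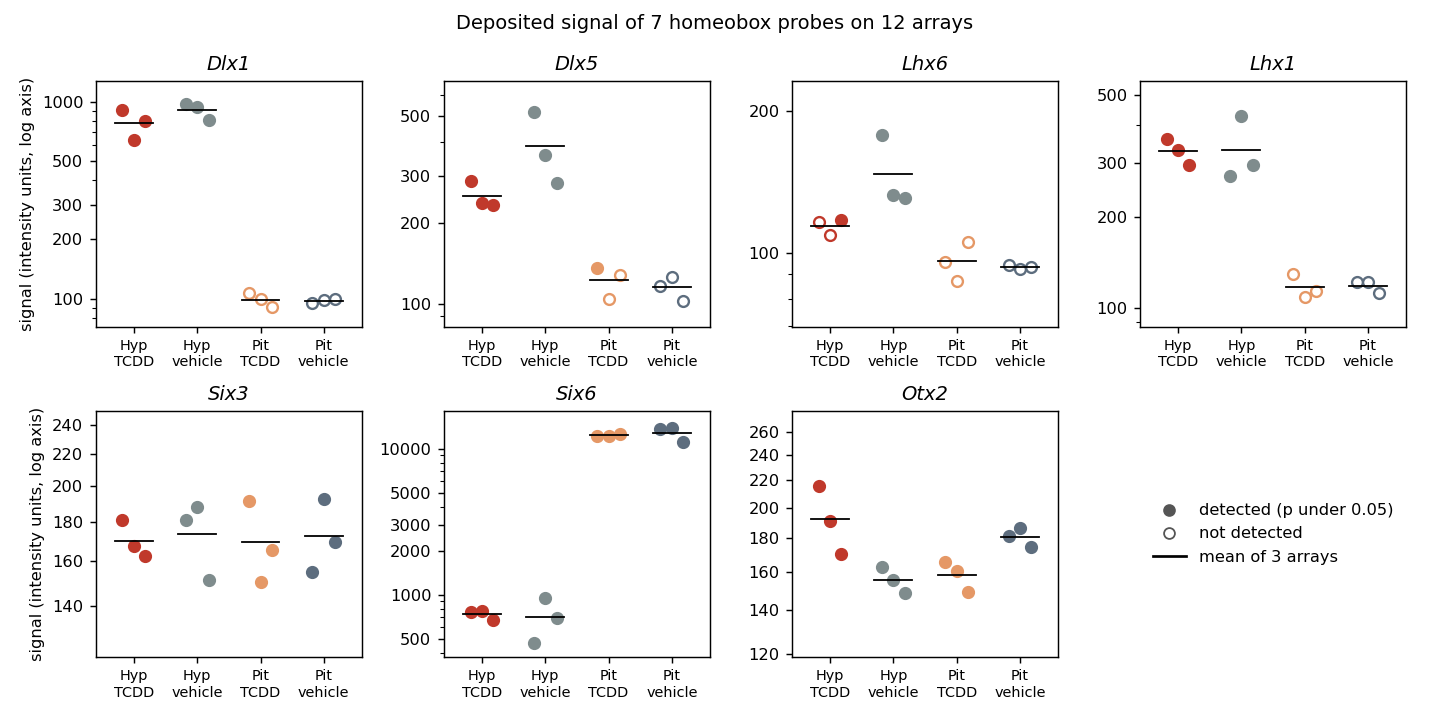
Deposited signal (linear intensity units on a log axis) of the 7 homeobox probes on each of the 12 arrays, by tissue and maternal treatment, 3 arrays a group; filled points were detected, open points were not, and bars are group means. Dlx1, Dlx5, Lhx6 and Lhx1 lie higher in the hypothalamus, Six6 lies at 11150.7 to 13868.6 on the pituitary arrays, and Otx2 is high in the TCDD hypothalamus and the vehicle pituitary.

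Dlx1, Dlx5 and Lhx6, the genes of the GABA neuron lineage, were lower in the hypothalamus of TCDD offspring than in that of vehicle offspring after normalization, with no overlap of the arrays. Otx2 was higher there, again with no overlap. Lhx1, Six3 and Six6 overlapped between the treatments. Over all 11095 probes tested in the hypothalamus, arrays did not overlap in 5.7% in the lower direction and in 5.19% in the higher direction. Since this comparison was among those that led to the choice of genes, nothing is read from the 3 and 1 of 7 beside these shares. At an adjusted p under 0.05, 0.00901% of all probes were called, which is a single probe without a gene name (ILMN_1374322, log2 difference -2.62, singled out after its value was seen) and no homeobox gene. In bulk tissue, fewer cells of a type and less RNA per cell cannot be told apart.

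Dlx1 (probe ILMN_1366467) gave signals of 903.0, 635.7 and 801.0 on the TCDD arrays 1 to 3 of the hypothalamus and 978.5, 939.5 and 805.0 on the vehicle arrays 1 to 3. As deposited, these overlapped, since TCDD array 1 lay above vehicle array 3. TCDD array 1 also had a higher median signal over all probes (122.8) than vehicle array 3 (108.1). After background correction and quantile normalization the log2 levels were 9.47, 9.15 and 9.55 with TCDD, and 9.84, 9.73 and 9.63 with vehicle. All 3 TCDD arrays then lay below all 3 vehicle arrays, with means of 9.39 ± 0.209 and 9.73 ± 0.102 (SD, n = 3 each). The log2 difference was -0.34 (SE 0.134), or 1.27-fold lower. It was -0.226 without TCDD array 2, the lowest of the 6.

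Dlx5 (ILMN_1374252), which acts after Dlx1 and Dlx2 in the same lineage in the mouse, gave 287.3, 238.5 and 233.6 on the TCDD arrays and 521.1, 358.4 and 282.0 on the vehicle arrays. The signals as deposited overlapped by the margin between TCDD array 1 and vehicle array 3, and the normalized levels did not. The TCDD arrays lay close together at 7.46, 7.35 and 7.33 on the log2 scale, while the vehicle arrays were spread over 8.83, 8.13 and 7.82. Means were 7.38 ± 0.0707 with TCDD and 8.26 ± 0.519 with vehicle. The log2 difference was -0.88 (SE 0.302), or 1.84-fold lower. Without vehicle array 1 it was -0.59.

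Lhx6 (ILMN_1352539) was near the detection limit. Its signals were 116.1, 108.9 and 117.7 on the TCDD arrays, where array 3 alone was detected, and 178.3, 132.9 and 130.8 on the vehicle arrays, all detected. The groups did not overlap on either scale. Log2 levels averaged 5.26 ± 0.182 with TCDD and 6.08 ± 0.518 with vehicle, a difference of -0.82 (SE 0.317), or 1.77-fold lower. The gene entered the table of tested probes through 4 detected arrays, 3 of them vehicle arrays. Its difference was -0.54 without vehicle array 1. It shrank to -0.379 without background correction and to -0.231 in the authors' normalized table, with the groups still apart in both.

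Lhx1 (ILMN_1356640) gave 359.5, 329.9 and 295.6 on the TCDD arrays of the hypothalamus and 271.6, 428.4 and 295.6 on the vehicle arrays. Vehicle arrays held both the highest and the lowest value. The log2 means were 7.90 ± 0.103 and 8.00 ± 0.413, and the difference of -0.10 (SE 0.246) lay within the spread of the vehicle arrays. Its sign depended on single arrays, from -0.278 without vehicle array 1 to 0.129 without vehicle array 2.

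Six3 (ILMN_1366944) was low but detected throughout, with 180.6, 167.3 and 162.4 on the TCDD arrays of the hypothalamus and 180.9, 187.8 and 151.4 on the vehicle arrays. The groups overlapped, with log2 means of 6.46 ± 0.0534 and 6.60 ± 0.19 and a difference of -0.14 (SE 0.114). Six6 (ILMN_1360151) gave 757.3, 771.6 and 676.1 on the TCDD arrays and 470.6, 942.8 and 696.0 on the vehicle arrays. Here too the vehicle arrays spanned the TCDD arrays. The log2 means were 9.30 ± 0.139 and 9.26 ± 0.557, with a difference of 0.04 (SE 0.331). This ran from -0.262 without vehicle array 1 to 0.278 without vehicle array 2.

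Otx2 (ILMN_1365900) gave 215.3, 190.7 and 170.4 on the TCDD arrays of the hypothalamus and 162.3, 155.1 and 148.6 on the vehicle arrays. Every TCDD array lay above every vehicle array, both as deposited and after normalization. Log2 means were 6.76 ± 0.134 with TCDD and 6.31 ± 0.106 with vehicle, and the difference was 0.45 (SE 0.0984), or 1.37-fold higher. It ranged from 0.396 to 0.528 as each array was left out.

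**Figure D2:**
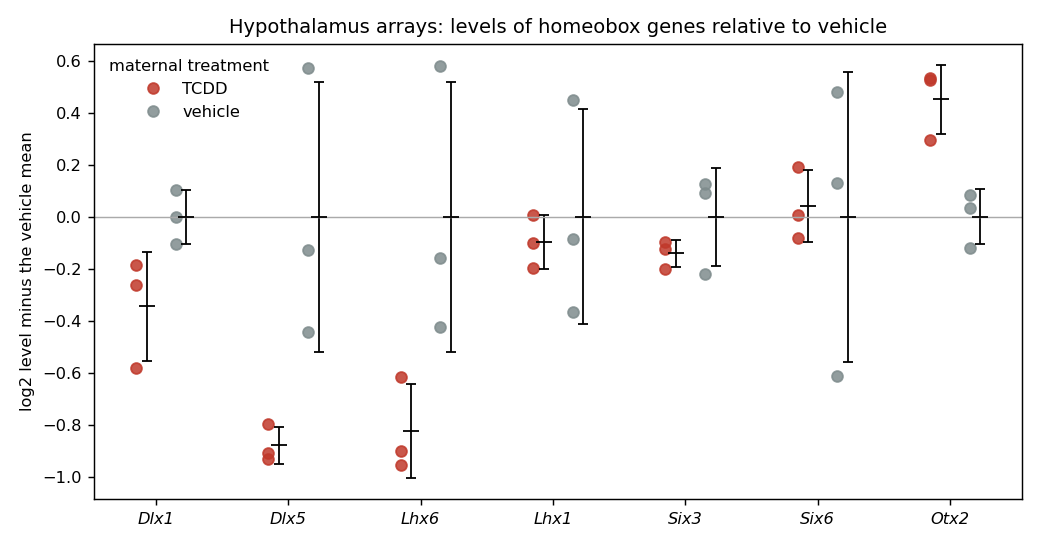
Log2 level of each homeobox gene on the 6 hypothalamus arrays minus the mean of the vehicle arrays; points are arrays, and the bar beside each group is its mean ± SD (n = 3). TCDD points of Dlx1, Dlx5 and Lhx6 lie below the vehicle points and those of Otx2 above, while vehicle points of Dlx5, Lhx6, Lhx1 and Six6 spread over about a log2 unit.

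The vehicle arrays of the hypothalamus differed among themselves in the same genes. Vehicle array 1 had the highest Dlx5 and Lhx6 of the 6 arrays, at 1.01 and 0.99 above their 6-array means on the log2 scale, and the lowest Six6 and Lhx1, at -0.63 and -0.32. Vehicle array 2 had the highest Six6 and Lhx1, at 0.46 and 0.50. When each array was set against its own group's mean, Lhx1 and Six6 deviated in the same direction on 5 of 6 arrays. Of all probes, 16.6% deviated with Lhx1 as often. Six6 deviated against Dlx1, Dlx5 and Lhx6 on 5 of 6 arrays each, and 9.29%, 16.1% and 12.4% of all probes opposed those 3 genes as often. Dlx5 and Lhx6 deviated together on 4 of 6 arrays, as 34.7% of probes did with Dlx5. Dlx1 deviated together with each of them on 4 of 6, as 29.0% of probes did with Dlx1. These counts describe 6 arrays and use the sign of each deviation alone. Some deviations were very small, such as -0.00278 for Lhx1 on TCDD array 1 and 0.000374 for Dlx1 on vehicle array 2.

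Markers of neighbouring regions varied over the same arrays. Vehicle array 1 carried the highest level of the 13 striatum and septum markers, with a mean of 0.766 log2 above the genes' 6-array means, against -0.245 to -0.143 on the TCDD arrays and -0.183 and -0.0297 on the other vehicle arrays. Their summed signal was 13208 to 14114 on the TCDD arrays and 13631 to 23136 on the vehicle arrays. None of the 13 was undetected on all 3 arrays of either group. The list is not particular to these arrays, since 12 of the 13 were detected on all 3 arrays of each pituitary group. Summed signals there were 13365 to 16167 with TCDD and 10585 to 17506 with vehicle. Ppp1r1b, the striatal phosphoprotein DARPP-32, read 1615.4, 1616.0 and 1741.1 on the TCDD hypothalamus arrays and 4130.3, 1825.5 and 1644.6 on the vehicle hypothalamus arrays. Meis2, a homeobox gene of striatal neurons, read 162.5, 125.6 and 118.9 on the TCDD arrays and 478.1, 175.2 and 136.4 on the vehicle arrays. Thus the array with the highest Dlx5 and Lhx6 also had the highest striatal markers. It was also highest for the oligodendrocyte (0.346), pan-neuronal (0.114), GABA neuron (0.137) and other homeobox (0.131) lists. For the preoptic and hypothalamic neuron list it was lowest (-0.208). The part of these lists in the result was not tested, and the differences of Dlx5 and Lhx6 without vehicle array 1 are -0.59 and -0.54.

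The 15 thalamus markers were highest on TCDD arrays 1 and 2, at 0.806 and 0.45, against -0.342 on TCDD array 3 and -0.519 to -0.153 on the vehicle arrays. Their summed signal was 13976 to 23796 with TCDD and 12417 to 13773 with vehicle, and none was undetected on all 3 arrays of either hypothalamus group. Tcf7l2, a factor of thalamic neurons, read 236.3, 184.9 and 127.1 with TCDD and 128.8, 116.2 and 120.8 with vehicle. Otx2 was likewise highest on TCDD arrays 1 and 2, and on TCDD array 3, where the thalamus list was low, it stayed above every vehicle array. The part of the thalamus markers in the Otx2 difference was not tested. Of 16 choroid plexus genes, where Otx2 is also made, 7 were undetected on all 3 arrays of each hypothalamus group, Cldn2, Clic6, Kcne2, Lmx1a, Slc4a5 and Sostdc1 among them in both. Their summed signal was 6900.3 to 9418.3 with TCDD and 7782.6 to 9142.1 with vehicle. Ttr, the transthyretin gene of the choroid plexus, read 223.0, 154.0 and 109.4 with TCDD and 175.2, 134.4 and 233.5 with vehicle, so the groups overlapped.

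Six6 is abundant in the pituitary, and 5 of the 11 pituitary hormone cell genes were undetected on all 3 TCDD hypothalamus arrays and 6 on all 3 vehicle hypothalamus arrays. The summed signal of the 11 was 6326.1 to 14429 on the TCDD hypothalamus arrays, 4253.5 to 9965.1 on the vehicle hypothalamus arrays, and 100600 to 111960 in the pituitary. Pitx1, a pituitary homeobox gene, read 303.8, 114.3 and 351.5 with TCDD and 184.0, 444.2 and 344.4 with vehicle. Six6 and Pitx1 were both highest on vehicle array 2. On TCDD array 2, where Pitx1 was lowest, Six6 had the second highest level. The part of pituitary transcripts in the Six6 signal of the hypothalamus was not tested.

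**Figure D3:**
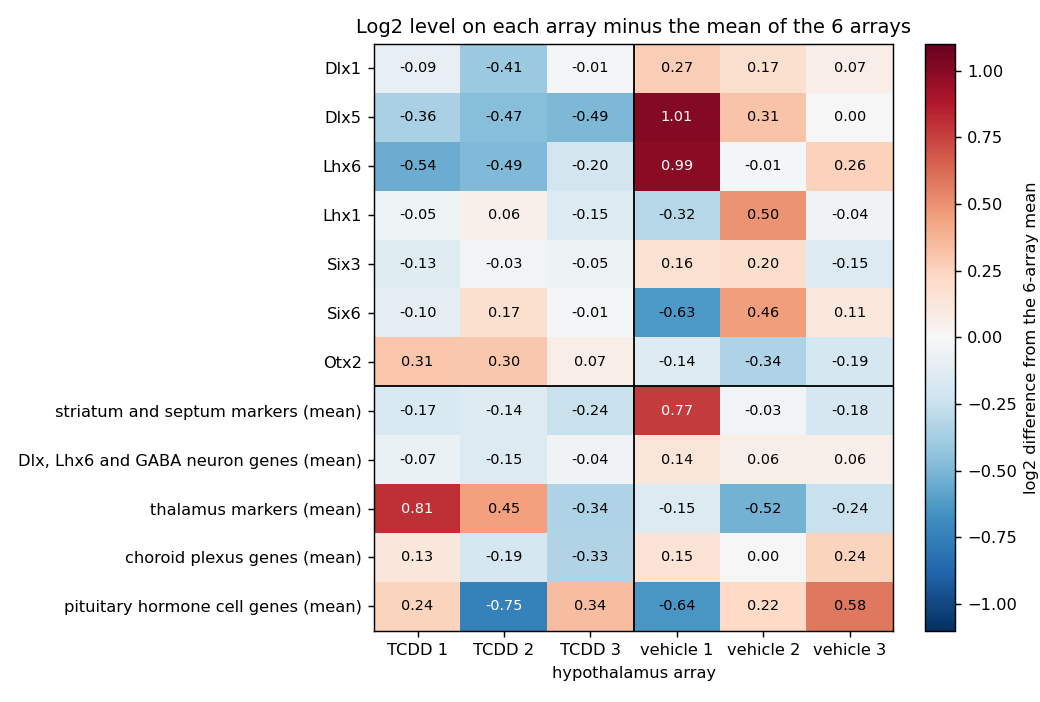
Log2 level on each hypothalamus array (columns, 3 TCDD then 3 vehicle) minus the mean of the 6 arrays, for the 7 homeobox genes (upper rows) and for the mean of 5 marker lists (lower rows); red is higher and blue lower. Vehicle array 1 is high for Dlx5 (1.01), Lhx6 (0.99) and the striatum and septum markers (0.77).

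In the pituitary, 3 of the 7 genes were detected on enough arrays to be tested, and none passed an adjusted p of 0.05 in limma. No probe of the 10119 tested did so (0%), and 614 (6.07%) had an unadjusted p under 0.05. Otx2 gave 165.2, 160.3 and 148.8 on the TCDD arrays of the pituitary and 181.4, 186.4 and 174.1 on the vehicle arrays. Every TCDD array lay below every vehicle array, which held for 5.7% of all probes tested. Log2 means were 6.23 ± 0.192 with TCDD and 6.61 ± 0.186 with vehicle. The difference was -0.38 (limma SE 0.134, 95% interval -0.684 to -0.0691, adjusted p = 0.773). It was -0.191 without background correction and -0.13 in the authors' normalized table.

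Six6 gave 12241.2, 12179.5 and 12522.1 on the TCDD arrays of the pituitary and 13629.2, 13868.6 and 11150.7 on the vehicle arrays, which overlapped. Its log2 difference was -0.03 (SE 0.0992, 95% interval -0.26 to 0.196, limma adjusted p = 0.979). Six3 gave 191.5, 150.5 and 165.6 with TCDD and 155.1, 192.2 and 169.3 with vehicle, also overlapping. Its difference was -0.06 (SE 0.217, 95% interval -0.557 to 0.44, limma adjusted p = 0.982). The 4 genes below the filter gave no tested value. Dlx1, Lhx6 and Lhx1 were undetected on all 6 pituitary arrays, and Dlx5 was detected on 1 array, TCDD array 1, at 136.2.

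Otx2 therefore lay apart in opposite directions in the tissues, as neither Six3 nor Six6 did. The share of all probes that did so was not counted, so nothing is read from this pattern. With all 12 arrays normalized together, the TCDD difference of Otx2 was 0.44 in the hypothalamus and -0.39 in the pituitary. These are 0.83 apart on the log2 scale. This gap was not tested for Otx2, having been seen before, and 0 of 11910 probes passed an adjusted p of 0.05 for such a gap in limma, with 738 (6.2%) at an unadjusted p under 0.05. The corresponding gaps were -1.05 for Dlx5, -0.77 for Lhx6 and -0.33 for Dlx1, genes whose pituitary values were at or under the detection limit. They were -0.08 for Six3, -0.02 for Lhx1 and 0.07 for Six6.

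Between tissues, Dlx1, Dlx5, Lhx6 and Lhx1 were higher in the hypothalamus, Six6 was far lower there than in the pituitary, and Six3 overlapped. Of all probes, arrays did not overlap in 29.7% in the higher and in 37% in the lower direction in vehicle offspring, and in 31.3% and 39.1% in TCDD offspring. In vehicle offspring 64.3% passed the adjusted p. Levels by tissue were used to choose the genes, so no test is given. In vehicle offspring, Dlx1 signals averaged 907.7 ± 91.0 in the hypothalamus and 98.0 ± 2.21, all undetected, in the pituitary (SD, n = 3 each). Without background correction, Dlx1 was at least 7.09-fold higher in the hypothalamus. The bound compares the mean log2 level of the detected group with that of the other, where each array counts at its lowest detected level or at the probe's level if that was higher. Dlx5 was at least 2.98-fold, Lhx1 at least 2.59-fold and Lhx6 at least 1.19-fold higher on that scale. In TCDD offspring Dlx1 was at least 5.60-fold and Lhx1 at least 2.41-fold higher. The same calculation depends on the background step: after background correction it gave 17.8 for Dlx1, 6.40 for Dlx5, 5.34 for Lhx1 and 1.46 for Lhx6 in vehicle offspring. Dlx5 signals averaged 253.1 ± 29.7 in the TCDD hypothalamus and 122.7 ± 16.5 in the TCDD pituitary, where 2 of the 3 arrays did not detect it. For Lhx6, detected on 1 of the 3 TCDD hypothalamus arrays, no fold can be bounded in TCDD offspring.

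Six6 was 20.5-fold lower in the hypothalamus than in the pituitary of TCDD offspring and 21.6-fold lower in vehicle offspring. Its pituitary probe signals stood above 99.35% of the probes on every array. Six3 overlapped between hypothalamus and pituitary, with log2 differences of -0.12 (SE 0.171) in TCDD offspring and -0.04 (SE 0.271) in vehicle offspring, the second being 0.15 with median scaling. Otx2 was 1.28-fold higher in the hypothalamus than in the pituitary of TCDD offspring (log2 difference 0.36, SE 0.142) and 1.38-fold lower in vehicle offspring (-0.47, SE 0.122), with no overlap of the arrays in either. In the order of its 4 group means, the TCDD hypothalamus (6.67 ± 0.131) and the vehicle pituitary (6.70 ± 0.188) did not differ beyond their spread, nor did the TCDD pituitary (6.31 ± 0.208) and the vehicle hypothalamus (6.23 ± 0.0989).

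**Figure D4:**
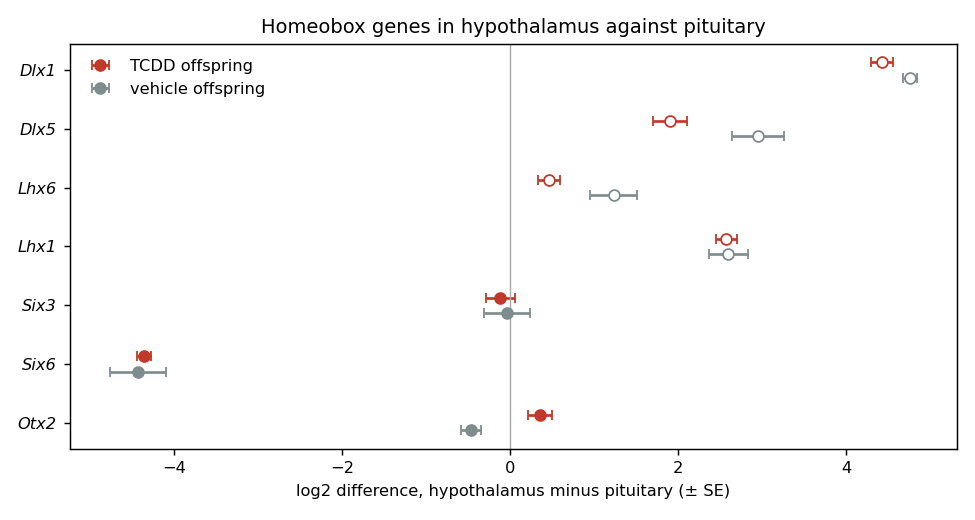
Log2 difference between hypothalamus and pituitary for each homeobox gene in TCDD offspring and vehicle offspring, with bars of ± 1 SE from the spread of 3 arrays a group; open points had an undetected array in at least 1 of the groups compared. Dlx1, Lhx6 and Lhx1 were undetected on every pituitary array and Dlx5 on all but 1, so their points rest on background levels there. Six6 lies at -4.36 and -4.43, and Otx2 changes side (0.36 and -0.47).

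The genes with the closest profiles over the 6 hypothalamus arrays were found by the root mean square difference between log2 profiles, each centred on its own mean, among 8140 named genes. For Dlx5, whose own deviation was 0.533, they were the lipase gene Lpl (0.141), Cbr3 (0.162), Gda (0.178), the angiotensin-related receptor gene Mas1 (0.179) and Rasl11b (0.205). For Lhx6 (0.520) they were the peptide gene Nmb (0.152), the immediate early gene Egr1 (0.179), Mas1 (0.189), Lrrk2 (0.198) and Rasl11b (0.204). Mas1 and Rasl11b thus stood near both. For Dlx1 (0.218) the closest were Hoxb1 (0.0542), Ptprr (0.0749) and Reep1 (0.0796), then Pola2 and P3h4. For Otx2 (0.246) they were Pnn (0.0385), the lipase inhibitor gene Angptl4 (0.0624) and Noc2l (0.0626), then Ptger3 and Atp6v0a1. For Lhx1 (0.251) the list held Drc3 (0.0606), Extl1, the kisspeptin receptor gene Kiss1r (0.0881), Pde6h and Arg1. For Six6 (0.332) it held Cldn9 (0.0917), A3galt2, the galanin receptor gene Galr2 (0.108), Ccdc103 and Slc17a5. For Six3 (0.134) it held Scn3b (0.0338), Reg3b, Bmyc, Rassf1 and Rps18. Over the 6 pituitary arrays and 7441 genes, the closest to Otx2 (0.244) were Amhr2 (0.0669), Cdk10, Dyrk2, Gstm5 and Dio1. For Six3 (0.290) they were Gatd1 (0.0756), Ubp1, Agpat5, Crtac1 and Upb1, and for Six6 (0.0878) Smarcd3 (0.0165), Plxnb2, Atf5, Adprs and Tpst1. With 6 arrays, many genes lie close to any profile.

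Partners and relatives of the 7 genes were followed as lists, whose members were counted in each direction. Overlap of listed genes was judged on the normalized levels. In the hypothalamus no listed gene passed an adjusted p of 0.05, and the median log2 difference over all probes was 0.00272, with 50.6% above 0 and 49.4% below. Of 16 tested genes of the Dlx, Lhx6 and GABA neuron list, 5 were higher and 11 lower with TCDD, with a median of -0.09. Gad2, which encodes a GABA-synthesising enzyme, read 301.8, 260.0 and 276.5 with TCDD and 382.6, 315.0 and 264.0 with vehicle, a difference of -0.37 after normalization (SE 0.156, adjusted p = 0.883). Its normalized levels did not overlap, whereas those of Meis2 (-1.34), Vax1 (-0.38) and Sox6 (-0.32) did, each at an adjusted p of 0.883. Without vehicle array 1 the differences were -0.203 for Gad2 and -0.551 for Meis2, and without vehicle array 2 that of Vax1 was -0.218. Gad1, the other GABA-synthesising enzyme, read 5557.8, 5117.8 and 5644.3 with TCDD and 7048.9, 6085.1 and 5307.7 with vehicle, which overlapped.

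Of 33 other hypothalamic and forebrain homeobox genes, 12 were higher and 21 lower with TCDD, with a median of -0.09. Pou3f2, a POU factor of hypothalamic neuroendocrine neurons, read 328.0, 361.5 and 314.0 with TCDD and 415.5, 501.4 and 359.4 with vehicle (log2 difference -0.54, SE 0.162, adjusted p = 0.883). The Pou3f2 signals as deposited overlapped, and its normalized levels did not. Those of Pou2f2 (0.35, detected on 3 TCDD arrays and 1 vehicle array) and Hopx (-0.31) did not overlap either, at the same adjusted p. Of 6 genes of a list of LIM homeodomain cofactors, 2 were higher and 4 lower, with a median of -0.09. Lmo4, a LIM-only protein, differed by -0.50 and Ldb2, a bridging cofactor, by 0.29, both without overlap, and Rlim, a ubiquitin ligase of these cofactors, by 0.34 with overlap, each at an adjusted p of 0.883. Without vehicle array 1 Lmo4 differed by -0.321 and Ldb2 by 0.194. Of 11 partners of Six3 and Six6, 6 were higher and 5 lower, with a median of 0.07, and Hdac3, a histone deacetylase, differed by 0.29 (adjusted p = 0.883).

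Of 12 suprachiasmatic nucleus genes, the home of Lhx1, 6 were higher and 6 lower, with a median of -0.000167. They included the clock repressor Cry1 (-0.29, without overlap after normalization), Rasd1 (0.56) and Rgs16 (0.69), each at an adjusted p of 0.883. Without TCDD array 1 Rasd1 differed by 0.328 and Rgs16 by 0.399. All 7 tested choroid plexus genes were lower, with a median of -0.22, which was -0.0662 in the authors' table. Leaving out vehicle array 1 alone, or TCDD array 3 alone, left 5 of 7 lower. Without a filter on detection 10 of 16 were lower. The list was led by the prolactin receptor gene Prlr (-0.20, without overlap) and Igfbp2 (-0.59, and -0.274 without TCDD array 2), both at an adjusted p of 0.883. Of 9 pituitary lineage factors, 3 were higher and 6 lower, with a median of -0.07. Of 22 preoptic and hypothalamic neuron genes, 11 were higher and 11 lower, with a median of -0.02. Among them Gnrh1, the gonadotropin-releasing hormone gene, read 198.4, 135.2 and 142.5 with TCDD and 263.4, 252.9 and 201.0 with vehicle (log2 difference -1.17, SE 0.213, adjusted p = 0.883).

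Of 15 thalamus markers, 14 were higher and 1 lower with TCDD, with a median of 0.56. After normalization Tcf7l2 (1.01), Lef1 (0.72), Slitrk6 (0.56) and Slc17a6 (0.45) did not overlap, each at an adjusted p of 0.883. As deposited, Tcf7l2 overlapped, as did Lef1, at 127.3 on TCDD array 3 and 127.9 on vehicle array 1. Both were detected on 2 of the 3 vehicle arrays. Under other processing Tcf7l2 fell as low as 0.319 and Lef1 as low as 0.202. Lef1 differed by 0.473 without TCDD array 1, Slitrk6 by 0.342 without vehicle array 2 and Slc17a6 by 0.265 without vehicle array 1. Of 13 striatum and septum markers, 3 were higher and 10 lower, with a median of -0.23. Among them Rgs9 differed by -0.73, Ppp1r1b by -0.59, Tac1 by -0.44 and Rxrg by -0.23, each with overlap and at an adjusted p of 0.883. Without vehicle array 1, which carried the highest level of this list, Rgs9 differed by -0.289 and Ppp1r1b by -0.161. Of 12 oligodendrocyte markers 3 were higher and 9 lower, of 11 astrocyte and tanycyte markers 6 and 5, of 13 pan-neuronal markers 8 and 5, and of 5 pituitary hormone cell genes 2 and 3, with list medians from -0.08 to 0.03.

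In the pituitary, with a median over all probes of 0.000521 and 50.3% above 0, no listed gene passed the adjusted p. Of 8 genes of the Dlx, Lhx6 and GABA neuron list, 2 were higher and 6 lower with TCDD. Cxcr4, a chemokine receptor of migrating interneurons, read 195.9, 195.0 and 180.8 with TCDD and 247.4, 221.8 and 196.7 with vehicle (log2 difference -0.34, SE 0.104, adjusted p = 0.696). Nxph1 differed by -0.32 (adjusted p = 0.696), also without overlap. Of 19 other homeobox genes 10 were higher and 9 lower, of 13 pituitary lineage factors 6 and 7, of 10 partners of Six3 and Six6 5 and 5, and of 6 LIM cofactors 4 and 2. Egr1, a gonadotrope factor, read 1844.0, 1267.7 and 984.7 with TCDD and 2178.9, 2306.6 and 2202.1 with vehicle (-0.79, SE 0.242, adjusted p = 0.707). Of 12 suprachiasmatic nucleus genes 8 were higher and 4 lower, of 8 choroid plexus genes 5 and 3, of 7 thalamus markers 2 and 5, and of 12 striatum and septum markers 9 and 3. Pde10a of the last list was 1.42 higher on the log2 scale with TCDD, without overlap (SE 0.136, limma adjusted p = 0.0541). This was the smallest adjusted p of the listed genes in the pituitary. Of 9 preoptic and hypothalamic neuron genes 6 were higher and 3 lower, of 4 oligodendrocyte markers 1 and 3, of 9 astrocyte and tanycyte markers 5 and 4, of 10 pan-neuronal markers 5 and 5, and of 11 pituitary hormone cell genes 3 and 8. The medians of these 14 lists lay between -0.15 for the thalamus markers and 0.13 for the striatum and septum markers. The other homeobox genes that were higher numbered 6 with median scaling, 5 of 18 without vehicle array 1 and 6 without vehicle array 2. The choroid plexus genes that were higher numbered 3 without vehicle array 1.

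In vehicle offspring, 8 of 16 genes of the Dlx, Lhx6 and GABA neuron list were higher and 5 lower in the hypothalamus at an adjusted p under 0.05, where 28.6% of all probes were higher and 35.7% lower. Only 8 genes of this list passed the filter in the pituitary arrays, so the others entered through hypothalamus arrays, Gad1, Sst, Gad2 and Pvalb among them, which were undetected on all 3 pituitary vehicle arrays. The other lists also hold genes that did not pass the filter in both tissues, and their counts between tissues are descriptions. The median of the list was 0.50, against -0.09 over all probes, which median scaling moved to 0.04. By the bound without background correction, Gad1 was at least 48.4-fold and Sst, the somatostatin gene, at least 28.0-fold higher. Gad2 was at least 2.53-fold and Pvalb at least 2.34-fold higher. Of 36 other homeobox genes, 12 were higher and 9 lower (median 0.03), with Nkx6-2 at least 17.1-fold, Pou3f3 at least 3.99-fold, Pou3f2 at least 3.33-fold and Emx2 at least 1.65-fold higher in the hypothalamus by the same bound. Of 14 pituitary lineage factors, 1 was higher and 8 were lower in the hypothalamus (median -0.88). Pou1f1, which specifies pituitary hormone cells, was at least 21.3-fold lower there, Pitx1 differed by -5.13 on the log2 scale, Neurod4 was at least 3.05-fold lower and Gata2 differed by -3.06. Six6 followed the direction of these factors.

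Of 11 partners of Six3 and Six6, 4 were higher and 4 lower in the hypothalamus of vehicle offspring (median -0.17), beside 28.6% and 35.7% of all probes. Sox2 was higher (log2 difference 1.48, limma adjusted p = 6.17e-05) and Sall1 at least 1.26-fold higher, while the corepressor Tle4 (-1.05, limma adjusted p = 2.84e-06) and the deacetylase Hdac1 (-0.98, limma adjusted p = 2.87e-05) were lower. Of 7 LIM cofactors, 1 was higher and 3 were lower (median -0.05). Ldb2 was higher (2.28, limma adjusted p = 2.21e-09) and Rlim lower (-1.16, limma adjusted p = 1.83e-05). Of the other lists, 5 of 13 suprachiasmatic nucleus genes were higher and 4 lower, 2 of 10 choroid plexus genes were higher and 5 lower, 9 of 15 thalamus markers were higher and 1 lower, and 6 of 13 striatum and septum markers were higher and 4 lower. The hypothalamus was higher in 10 of 12 oligodendrocyte, 9 of 11 astrocyte and tanycyte and 12 of 13 pan-neuronal markers, and lower in 0 of each.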

How the data were processed

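The arrays of 4 groups, 3 each, came as a deposited table of signal intensity values, which per the file headers the authors had not normalized, with a detection p-value for each probe and array. The sources used here do not name the scanner software or a background step. A second table deposited by the authors holds linear intensity values normalized for each tissue on its own, per the labels' series text, by a method that is not stated. It kept each array's rank order (Spearman rho of 1), had medians of 169.245 to 169.276 on the hypothalamus arrays and 171.321 to 171.382 on the pituitary arrays, and lowest values of 128.669 and 127.018, so it was not centred. The offset or background step behind those lowest values stays unknown, and the table served as an alternative.

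Probes were named through the platform annotation, with 13793 paired with 1 symbol, 0 with several and 8730 unnamed, and 13752 of the names updated or kept by gene ID through RefSeq (GRCr8). Signals were corrected with limma's nec (limma 3.58.1, R 4.3.3; background from the detection p-values, offset 16), quantile normalized within each tissue and log2 transformed. For comparisons between tissues and for the gap between TCDD differences, a joint normalization of the 12 arrays and a fit of 4 groups were used. Probes detected (p under 0.05) on at least 3 arrays were tested with lmFit and eBayes, two-sided, with Benjamini-Hochberg adjustment over all probes, and a gene was represented by its probe of highest mean. The offset shrinks the folds of dim probes. Precision is limited by the number of arrays. The fit was tested on simulated data with 100 changed probes. At a change of 1 log2 unit, calls numbered 75 in the hypothalamus and 85 in the pituitary, with 9 and 10 false calls. At 2 log2 units calls numbered 97 in each tissue, again with 9 and 10 false calls. In each case the false calls were a larger share of the calls than 0.05, the threshold on the adjusted p used here.

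The 8 genes, the 14 lists and the rules were chosen with earlier results of these data known. The text names all 8 genes and, of each list, the members at an adjusted p under 0.05 or else up to 4 of smallest p with TCDD, and up to 4 of largest difference between tissues. It names the 5 genes of closest profile for each tested homeobox gene, and gives Gad1, Ttr and Tshb as values of single markers. Not every gene that the rule allows is printed. SE values of the homeobox genes in the hypothalamus and between tissues come from the spread of the arrays, and the others from limma. Alternatives were median scaling, no background correction, other filters on detection, a trended robust variance, the replicate number as a block, the authors' table, all 12 arrays together and leaving out each array.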

Additional observations from a re-analysis of the deposited data

Results flagged for a closer look

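Otx2 was picked out because its TCDD and vehicle arrays lay apart in opposite directions in the tissues. In the hypothalamus it was 0.452 higher on the log2 scale with TCDD, with all 3 TCDD arrays above all 3 vehicle arrays. In the pituitary it differed by -0.376, with all 3 TCDD arrays below all 3 vehicle arrays. The difference between the tissues was not tested for this gene, and the share of all probes apart in opposite directions was not counted. Both directions and both separations were the same with median scaling, without background correction, in the authors' normalized table, in the signals as deposited and with all 12 arrays normalized together. These settings rescale the same arrays, and the gene was chosen with its hypothalamus difference known, so nothing further is read from them.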

How the results depend on the processing

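Every homeobox gene whose arrays lay apart kept its direction under each alternative. Dlx1 and Dlx5 overlapped between treatments in the signals as deposited, at -0.229 and -0.573, and lay apart under the 5 scalings run. The size for dim genes depended on the background step: Lhx6 in the hypothalamus was -0.823 with it, -0.379 without it, -0.353 in the signals as deposited and -0.231 in the authors' table, and Otx2 was 0.244, 0.301 and 0.163 under those 3 settings. Six3 in the pituitary ranged from -0.292 to 0.065 as each array was left out, with 0.0541, 0.065 and 0.0583 without vehicle array 2, vehicle array 3 or TCDD array 2. Six6 in the pituitary ranged from -0.122 to 0.0183, turned without vehicle array 2, and Pitx1 in the hypothalamus from -1.37 to 0.0319, turned without TCDD array 2. Of 1189 values of single genes under other settings, 19 moved beyond the spread, 0 crossed the threshold and 22 changed sign. The spread was used only for homeobox genes without a test, so the 19 fall on those alone. All other values were judged by the threshold and the sign. The sign changes fell on 9 results, namely Lhx1, Six6 and Pitx1 in the hypothalamus, Six3 and Six6 in the pituitary, Six3 between tissues, and the gaps of Lhx1, Six3 and Six6.

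In the hypothalamus 1 probe was called for TCDD, 2 without background correction, without a filter on detection, with detection on every array or in the authors' table, 3 with a trended robust variance, and 0 with all 12 arrays together, and 1 to 3 as each array was left out. In the pituitary 0 were called, with 2 without background correction or in the authors' table, 1 with detection on every array, 3 with the trended robust variance, and 0 to 3 as each array was left out. Between tissues the calls numbered 7656, with 5594 to 8176 under other settings and 7122 to 7637 with an array left out. For the gap between TCDD differences they stayed at 0, with 0 to 1 as each array was left out. Median scaling moved the share of probes with an unadjusted p under 0.05 that were higher to 73.1% from 50.3% in the hypothalamus, to 22.8% from 45.3% in the pituitary, to 55.1% from 44.4% between tissues and to 79.3% from 50.8% for the gap. The causes were not tested.

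Array numbers here give the order of the samples within a group, and many differ from the number in the sample title. Arrays of the same number do not share a source in the labels. In the hypothalamus, no TCDD and vehicle array of the same number share a title number. Correlations of same-numbered deviations were 0.112, 0.0956 and 0.259 in the hypothalamus and 0.0715, 0.185 and 0.0699 in the pituitary. An array's best match had its own number for 2 of 3 and 3 of 3 numbers. Since the numbers are an order and not the design, no pairing of arrays is read from this. The replicate block left 1 call in the hypothalamus, 0 in the pituitary, 7612 between tissues and 0 for the gap. Of the list counts, thalamus markers higher with TCDD were 14, with 9 where detection on every array left fewer genes tested, and 10 to 14 as each array was left out. Each homeobox gene had 1 probe, so no other probe could be compared, and Lhx6 was not tested in the hypothalamus with detection on every array.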
